A study of Mus musculus with 17 samples.

Results

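The results concern 6 messages that are known or predicted targets of the let-7 microRNAs and that act in growth control: Mycn, Arid3b, Plagl2, Tgfbr1, Nras and Dna2. They were taken by name as let-7 targets outside the Lin28, Hmga2 and Igf2bp genes, and are 6 of 24416 genes in the count files. All 6 passed the filter on low counts and are among 13558 genes tested. RNA was sequenced from common myeloid progenitors (CMPs), precursors that give rise to granulocytes, monocytes, platelets and red cells, in 17 mouse libraries. The groups were wild-type fetal liver (n = 3), fetal liver labelled Lin28b KO (knockout, n = 3), fetal liver of the inducible Let-7 line (n = 1), wild-type adult bone marrow (n = 3), let-7b/c knockout marrow (n = 3), inducible LIN28B marrow (n = 2) and inducible LIN28B marrow under vavcre (n = 2). The design text describes vavcre as limiting induction to blood-forming cells. The let-7b/c knockout was on an albino black 6 strain and every other group on C57BL/6J, so strain and genotype cannot be told apart there. The treatment given for all 17 libraries, wild-type ones included, is doxycycline exposure to induce Lin28b. The sources used here do not give ages, the promoters of the inducible transgenes or the number of animals.

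MicroRNAs of the let-7 family guide a silencing complex to messages whose 3′ untranslated region (UTR) pairs with the microRNA's seed, and the message is then destabilised or less translated. LIN28B binds RNA, is made in fetal blood progenitors and blocks the maturation of let-7, so fetal cells carry little mature let-7 and adult cells carry more. Mycn encodes N-MYC, a transcription factor that drives growth. Arid3b encodes an AT-rich DNA-binding protein, and Plagl2 a zinc finger transcription factor. Tgfbr1 encodes the type I TGF-β receptor kinase, which phosphorylates SMAD2 and SMAD3. Nras encodes a small GTPase upstream of the MAP kinase cascade. Dna2 encodes a nuclease and helicase that trims Okazaki fragments and resects broken DNA ends.

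Mature let-7b and let-7c, the pair named in the knockout's label, are shown with the seed (bases 2 to 8) in capitals, from RefSeq on GRCm38.p6. Of 11 family names in that table, 10 had this seed, GAGGUAG. The same mature let-7c is listed for Mirlet7c-1 on chromosome 16 and Mirlet7c-2 on chromosome 15, and the label does not say which locus was deleted.
let-7b: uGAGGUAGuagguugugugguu
let-7c: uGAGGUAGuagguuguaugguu

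Messages were searched on the sense strand for 3 matches to that seed. The 8-base match CTACCTCA pairs with bases 2 to 8 and has an A opposite base 1. The 7-base m8 match CTACCTC lacks that A, and the 7-base A1 match TACCTCA lacks the pair at base 8. A longer match was not counted again as a shorter one. The sites shown here are the best match of each gene and every match of Mycn and Arid3b, whose matches were the most frequent for their UTR length. Each run of 26 bases is read 5′ to 3′ on the message from GENCODE vM21 (GRCm38), with the match in capitals.
Mycn, site 1 (chr12:12936499-12936524, minus strand): cacctaagtactgtaagaaTACCTCA
Mycn, site 2 (chr12:12936128-12936153, minus strand): accttagagcactttgaaaTACCTCA
Arid3b, site 1 (chr9:57792443-57792468, minus strand): gagattgatgcacagaattTACCTCA
Arid3b, site 2 (chr9:57791664-57791689, minus strand): gatgtcaggctcactgaaaTACCTCA
Arid3b, site 3 (chr9:57791011-57791036, minus strand): aaaagcttatgcacaaacaTACCTCA
Arid3b, site 4 (chr9:57790454-57790479, minus strand): agcctaggccgtgactgaaTACCTCA
Arid3b, site 5 (chr9:57790361-57790386, minus strand): ttatatttcaataaagctCTACCTCt
Plagl2 (chr2:153229898-153229923, minus strand): tgattcagaaacacacttCTACCTCt
Tgfbr1, site 1 (chr4:47410825-47410850, plus strand): tttaggaggctggttgttCTACCTCA
Nras, site 1 (chr3:103064356-103064381, plus strand): gagacctcttcagaataaCTACCTCc
Dna2 (chr10:62974066-62974091, plus strand): cctgggggggaaaaacttCTACCTCA

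The 6 messages held between 1 and 5 matches in their 3′ UTRs. Arid3b had 5, and 0.134% of genes with a UTR of like length (within 25%) had as many. Mycn had 2 in a UTR of only 913 bases, which 0.824% of like UTRs reached. Tgfbr1 and Nras had 2 each, reached by 8.33% and 6.85% of like UTRs, and the second match of each was of the A1 kind. Dna2 had a single 8-base match, and 9.66% of like UTRs had at least 1 match of any kind. Plagl2 had a single m8 match in 3730 bases, and 33.04% of like UTRs held at least 1 match of any kind, so its UTR was not unusual by this count. Outside the UTR, the coding and upstream sequence held 2 matches in Dna2 and 1 each in Arid3b and Plagl2. Among all 12190 tested genes with an annotated 3′ UTR, 16.6% held a match and 3.62% an 8-base match. A match describes the letters and does not show binding.

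**Figure D1:**
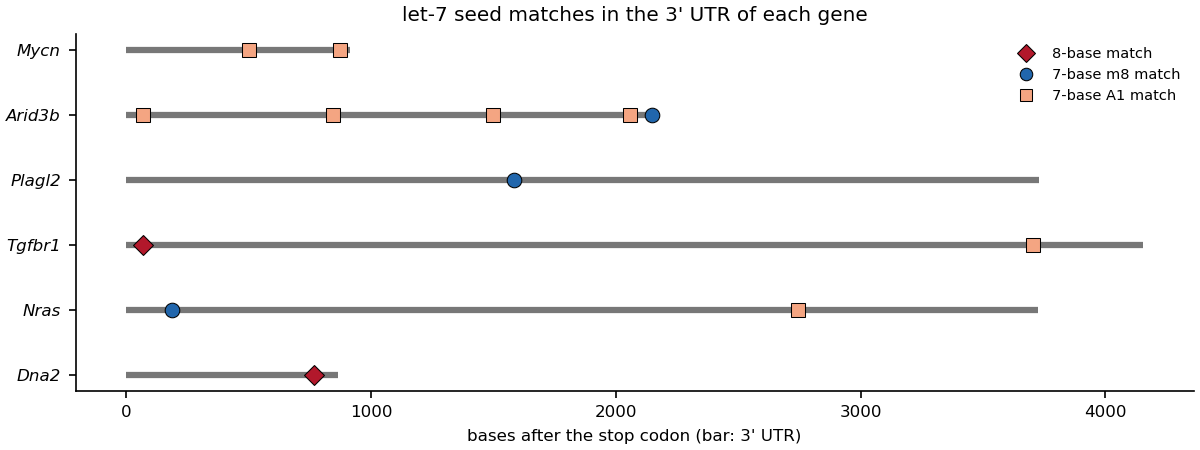
Position of each let-7 seed match in bases after the stop codon (x axis), with the 3′ UTR of each gene drawn to scale as a bar and the kind of match as the symbol. Arid3b carries 5 matches from base 67 to base 2148, whereas Plagl2 carries 1 at base 1584.

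Levels are in CPM, counts per 1000000 counts on transcripts in a library scaled by edgeR's TMM factors, and are given as mean ± SD. The libraries held 14957111 to 28165554 counts, and the least counted value of the 6 genes rests on 69 counts. Differences are log2 ratios of fitted group means with their standard error (SE), from 1 edgeR quasi-likelihood fit of all 17 libraries, with p-values adjusted over all tested genes (Benjamini-Hochberg) and a call where the adjusted p was under 0.05. No label states that replicate libraries are different animals, so the spread behind each p-value is that of these libraries and may be technical. Reads carry no molecular identifiers, so counting intervals cover counting error only.

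The group labelled Lin28b knockout stood apart before any of the 6 genes was considered. Lin28b itself was at 104 ± 12.9 CPM there and 104 ± 17.6 CPM in the wild type (n = 3 each), and whole-transcript counts cannot show the loss of single exons. Its summed level of 21 erythroid markers was 36423 to 42459 CPM, against 532 to 787 CPM in wild-type fetal liver. All 16 tested erythroid markers were called higher, with Hba-a1 and Hbb-bt listed at 0, as were 10 of 11 hepatocyte and 10 of 11 granulocyte markers. Of the CMP markers, Mpo was present in every group, at 4045 ± 1326 CPM in this one (n = 3), while Gata2 was at 41.6 ± 5.18 CPM against 221 ± 11.2 CPM in wild-type fetal liver (n = 3 each). Kit, Cebpa and Runx1 were listed at 0 in every library and so gave no check of the cell type. In bulk RNA, fewer cells of a type and less RNA per cell cannot be told apart.

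Mycn (NM_008709, chromosome 12, 12936093 to 12941836 in GRCm38) spanned the widest range of replicated group means. In wild-type fetal liver it was at 229, 199 and 217 CPM in libraries 1, 4 and 5, and in wild-type marrow at 107, 121 and 116 CPM in libraries 2, 5 and 6. Libraries 3, 6 and 8 of the labelled Lin28b knockout gave 15.4, 19.5 and 18.7 CPM. The let-7b/c knockout gave 50.1, 10.8 and 39.1 CPM in libraries 1, 2 and 3. All wild-type fetal liver libraries were above all wild-type marrow libraries, and all libraries of either knockout were below both. The LIN28B lines lay between the wild-type groups, at 159 and 159 CPM without vavcre and 169 and 143 CPM with vavcre. The single inducible let-7 library had 106 CPM, just under the wild-type marrow range.

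In the labelled Lin28b knockout Mycn fell 12.05-fold from wild-type fetal liver (log2 difference -3.59, SE 0.36, adjusted p = 8.01e-07). In the let-7b/c knockout it fell 3.44-fold from wild-type marrow (log2 difference -1.78, SE 0.33, adjusted p = 0.0116). The second library of that knockout was the lowest of all 17, and without it the log2 difference was -1.34 (adjusted p = 0.000158). The call was lost in a fit of the compared groups alone (adjusted p = 0.0588) and with the replicate block (adjusted p = 0.0725). Between wild-type fetal liver and marrow the difference of 0.90 (SE 0.32) was at the threshold (adjusted p = 0.0471). That call was lost when any 1 library of either wild-type group, of the labelled Lin28b knockout or of the LIN28B group without vavcre was left out (adjusted p up to 0.119). It was also lost with median-ratio scaling, library totals, DESeq2, limma-trend and the replicate block (adjusted p up to 0.537). In a fit of the compared groups alone it was kept (adjusted p = 9.81e-06). After LIN28B induction the log2 difference from wild-type marrow was 0.46 (95% interval -0.18 to 1.09, adjusted p = 0.335). It was called without library 2 of the let-7b/c knockout (adjusted p = 0.0100) and when only the groups compared were fitted (adjusted p = 0.0230).

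Arid3b (NM_019689, chromosome 9, 57790353 to 57836847) had the lowest level per kilobase of the 6 in both wild-type groups and ordered the groups differently from Mycn. It was at 39.8, 45.8 and 38.7 CPM in wild-type fetal liver libraries 1, 4 and 5, and at 18.7, 15.05 and 14.9 CPM in wild-type marrow libraries 2, 5 and 6. In the labelled Lin28b knockout it was at 51.7, 52.3 and 49.6 CPM, and the let-7b/c knockout 11.2, 8.88 and 9.52 CPM. Thus the fetal groups with 3 libraries were both high and the marrow groups with 3 libraries both low, with no overlap. LIN28B marrow reached the wild-type fetal liver range, at 41.0 and 39.1 CPM without vavcre and 30.3 and 31.9 CPM just below it with vavcre. The inducible let-7 library had 3.06 CPM (79 counts, exact 95% Poisson interval 2.42 to 3.82 CPM), under every other library.

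Arid3b was 2.55-fold higher in wild-type fetal liver than in wild-type marrow (log2 difference 1.35, SE 0.13, adjusted p = 3.75e-06). It rose by a mean of 1.12 on the log2 scale in the LIN28B lines (SE 0.13, adjusted p = 0.000188). The let-7b/c knockout was lower than wild-type marrow by a log2 difference of -0.72 (SE 0.14, adjusted p = 0.0133), which was lost without wild-type marrow library 2 (adjusted p = 0.0793) or without knockout library 2 (adjusted p = 0.0711), in a fit of the compared groups alone (0.0952) and with the replicate block (0.220). The labelled Lin28b knockout stood 0.30 above wild-type fetal liver on the log2 scale (95% interval 0.03 to 0.58, adjusted p = 0.0710). That difference was called with median-ratio scaling (adjusted p = 0.0282), with DESeq2 (0.00649), in a fit of the compared groups alone (0.00946), and when any 1 of the 10 marrow libraries was left out. LIN28B marrow without vavcre did not pass the test against wild-type fetal liver (log2 difference, fetal minus LIN28B, 0.05, 95% interval -0.26 to 0.36, adjusted p = 0.874).

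Plagl2 (NM_018807, chromosome 2, 153227769 to 153241358) was at 118, 114 and 109.7 CPM in wild-type fetal liver and 63.1, 58.7 and 54.8 CPM in wild-type marrow. Libraries of the labelled Lin28b knockout held 171, 164 and 153 CPM, above every other library, and the let-7b/c knockout 45.0, 59.1 and 50.3 CPM, overlapping wild-type marrow. The LIN28B libraries split by line, with 105 and 89.8 CPM without vavcre and 47.8 and 61.7 CPM with vavcre. The inducible let-7 library held 2.67 CPM (69 counts, exact 95% Poisson interval 2.08 to 3.38 CPM). Every other library held at least 45.0 CPM.

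Plagl2 was 1.93-fold higher in wild-type fetal liver than in marrow (log2 difference 0.95, SE 0.12, adjusted p = 2.88e-05). It was a further 1.43-fold higher in the labelled Lin28b knockout (log2 difference 0.52, SE 0.12, adjusted p = 0.00197), the opposite direction to Mycn. LIN28B marrow without vavcre was 1.65-fold above wild-type marrow (adjusted p = 0.0148, up to 0.167 under alternatives). The log2 difference of wild-type marrow from the vavcre line was 0.10 (95% interval -0.18 to 0.39, adjusted p = 0.586). The lines themselves differed by -0.83 with vavcre minus without (SE 0.14, adjusted p = 0.00104). Their mean therefore was 0.31 above wild-type marrow and not called (adjusted p = 0.0748). It was called by DESeq2 (adjusted p = 0.0426) and without library 4 of the vavcre line (adjusted p = 0.0180).

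Tgfbr1 (NM_009370, chromosome 4, 47353222 to 47414926) was lowest in the labelled Lin28b knockout, at 40.6, 41.2 and 36.3 CPM. The wild-type groups were close, with 114, 101 and 116 CPM in fetal liver and 93.7, 98.6 and 71.2 CPM in marrow, and the let-7b/c knockout had 87.2, 71.4 and 87.7 CPM. LIN28B marrow was highest, with 145 and 128 CPM without vavcre and 157 and 177 CPM with vavcre, above every library of the other groups. The inducible let-7 library had 117 CPM, just above the wild-type fetal liver range. An annotated long noncoding RNA, Gm32435, overlaps 32925 bases of the locus. It was not among the transcripts counted, and which strand was counted is not stated.

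Tgfbr1 fell 2.80-fold in the labelled Lin28b knockout (log2 difference -1.48, SE 0.13, adjusted p = 1.49e-07). It rose 1.72-fold in the mean of the LIN28B lines (log2 difference 0.78, SE 0.12, adjusted p = 0.000871). The lines differed from each other by 0.29 (95% interval -0.03 to 0.61, adjusted p = 0.193). Wild-type fetal liver and marrow differed by 0.33 (95% interval 0.06 to 0.59, adjusted p = 0.0633). This was called with no filter on low counts (adjusted p = 0.0445), in a fit of the compared groups alone (0.0388), and without wild-type marrow library 5 (0.0326), let-7b/c knockout library 2 (0.0372) or vavcre library 4 or 6 (0.0378 and 0.0380). In the let-7b/c knockout the difference was -0.10 (95% interval -0.36 to 0.17, adjusted p = 0.788).

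Nras (NM_010937, chromosome 3, 103058285 to 103067914) spanned the narrowest range of group means. Wild-type fetal liver libraries had 294, 282 and 285 CPM and wild-type marrow libraries 214.6, 212.8 and 213.2 CPM. The labelled Lin28b knockout had 227, 232 and 230.1 CPM, and the let-7b/c knockout 202, 230.3 and 203 CPM around the wild-type marrow values. LIN28B marrow had 273 and 274 CPM without vavcre and 349 and 346 CPM with vavcre, the latter above all other libraries. The inducible let-7 library had 261 CPM, below wild-type fetal liver and above wild-type marrow.

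Nras was 1.35-fold higher in wild-type fetal liver than in marrow (log2 difference 0.43, SE 0.06, adjusted p = 0.000116). It fell by 0.32 on the log2 scale in the labelled Lin28b knockout (SE 0.06, adjusted p = 0.000555) and rose 1.44-fold with LIN28B induction (log2 difference 0.53, SE 0.06, adjusted p = 0.000166). The vavcre line exceeded the other line by 0.35 (SE 0.08, adjusted p = 0.00465). The let-7b/c knockout differed from wild-type marrow by -0.01 (95% interval -0.15 to 0.12, adjusted p = 0.960). Whether the labelled Lin28b knockout lay above or below wild-type marrow depended on scaling, at 0.11 with TMM (adjusted p = 0.178), 0.17 with median ratios (adjusted p = 0.0364) and -0.20 with library totals (adjusted p = 0.0147).

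Dna2 (NM_177372, chromosome 10, 62946983 to 62974188) was at 196, 232 and 217 CPM in wild-type fetal liver and 98.6, 120.3 and 105 CPM in wild-type marrow. In the labelled Lin28b knockout it had 209, 223 and 218 CPM, within the wild-type fetal liver range. The let-7b/c knockout had 136, 140.0 and 136 CPM, above all wild-type marrow libraries. LIN28B marrow had 159 and 172 CPM without vavcre and 166 and 181 CPM with vavcre, between the wild-type groups. The inducible let-7 library had 101 CPM, inside the wild-type marrow range.

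Dna2 was 1.99-fold higher in wild-type fetal liver than in marrow (log2 difference 0.99, SE 0.09, adjusted p = 8.91e-07) and rose 1.57-fold with LIN28B induction (log2 difference 0.65, SE 0.08, adjusted p = 0.000251). Its log2 difference between the labelled Lin28b knockout and wild-type fetal liver was 0.01 (95% interval -0.17 to 0.19, adjusted p = 0.933). The let-7b/c knockout was 1.27-fold above wild-type marrow, at the threshold (log2 difference 0.35, SE 0.08, adjusted p = 0.0453). Leaving out 1 of 9 libraries ended this call (adjusted p up to 0.140). These were wild-type fetal liver 4 or 5, any labelled Lin28b knockout library, wild-type marrow 2 or 6, and let-7b/c knockout 1 or 2. It was also lost with library totals and in a fit of the compared groups alone.

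**Figure D2:**
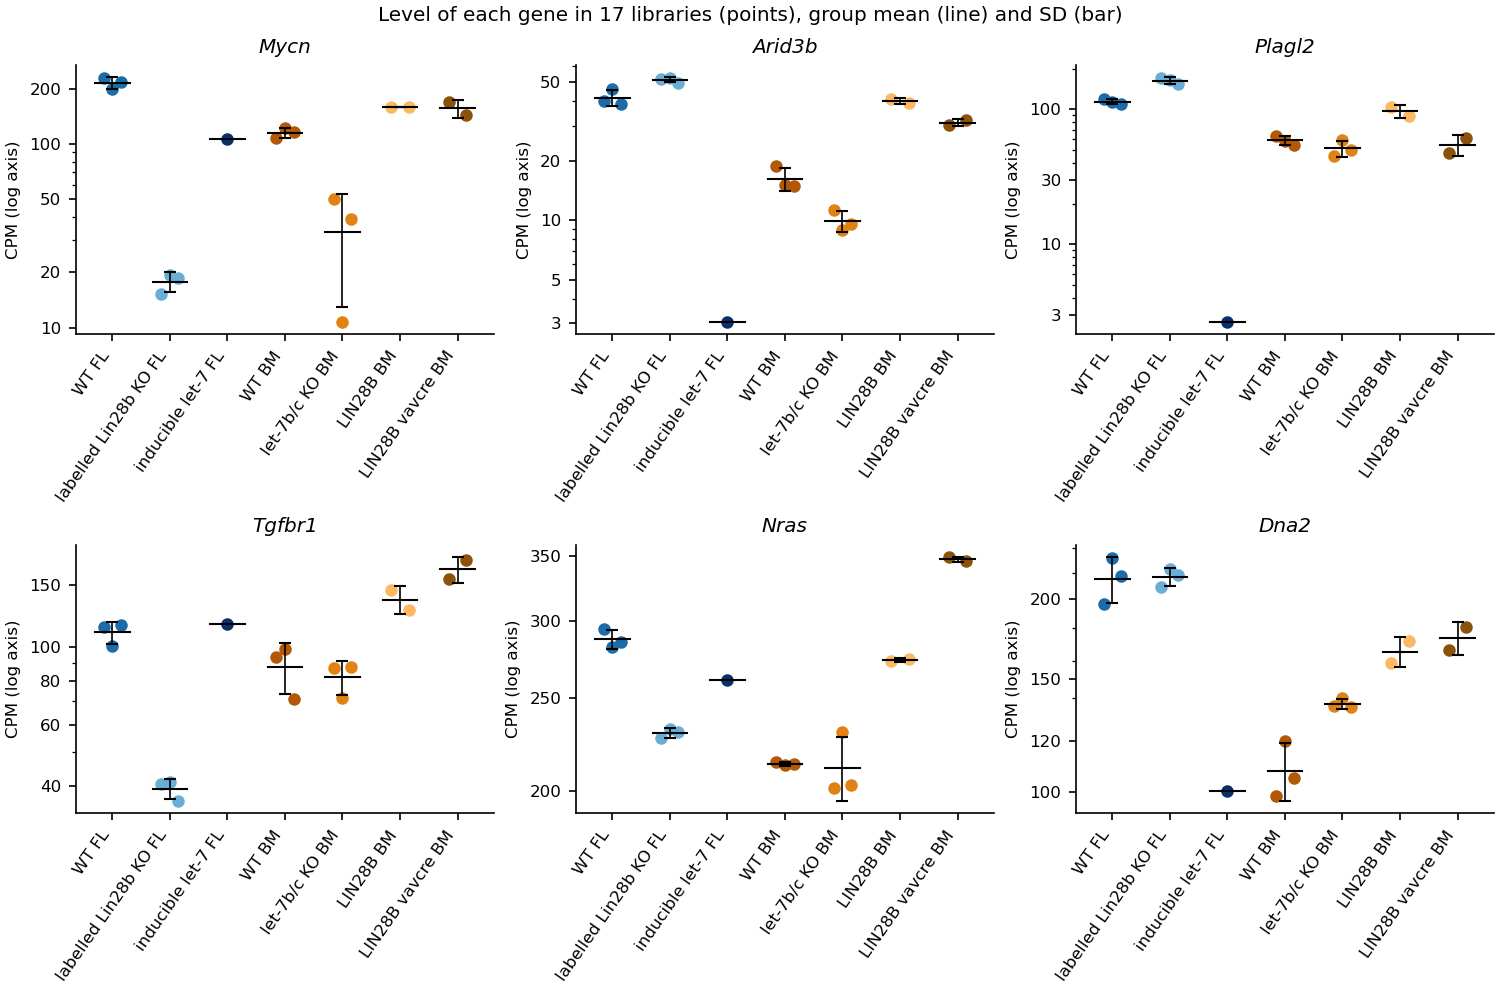
CPM of each gene on a log axis in all 17 libraries (points) by group (FL, fetal liver; BM, bone marrow; WT, wild-type; KO, knockout), with the group mean as a line and the SD as a bar; the inducible let-7 group has 1 library. Mycn and Tgfbr1 are lowest or nearly lowest in the labelled Lin28b knockout, whereas Arid3b and Plagl2 are highest there and drop to 3.06 and 2.67 CPM in the inducible let-7 library.

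Per kilobase of transcript, Mycn was the most abundant of the 6 in wild-type fetal liver at a mean of 80.3 CPM per kilobase, ahead of Nras (64.2), Dna2 (52.2), Plagl2 (20.8), Tgfbr1 (19.1) and Arid3b (9.94). In wild-type marrow Nras led at 47.8 CPM per kilobase, then Mycn (42.9), Dna2 (26.2), Tgfbr1 (15.3), Plagl2 (10.7) and Arid3b (3.89). In the order of replicated group means, several neighbours did not pass the test. For Mycn these were wild-type fetal liver, both LIN28B lines and wild-type marrow in turn, above the let-7b/c knockout and then the labelled Lin28b knockout. That lowest step was called (adjusted p = 0.0395) although the ranges overlapped, and was lost with median ratios, DESeq2, limma-trend and the replicate block (adjusted p up to 0.159). For Arid3b the labelled Lin28b knockout, wild-type fetal liver and the LIN28B lines did not pass from one to the next, above wild-type marrow and then the let-7b/c knockout. Wild-type fetal liver and the vavcre line, which are not neighbours, did pass (adjusted p = 0.0396), but not with library totals, with no filter on low counts, over genes with 1 transcript only or with the replicate block (adjusted p up to 0.218). Plagl2 fell into a top group (the labelled Lin28b knockout), a middle pair (wild-type fetal liver and LIN28B without vavcre) and a lower set of the other 3 marrow groups. Between neighbours Tgfbr1 showed a single called step, from the let-7b/c knockout down to the labelled Lin28b knockout (adjusted p = 4.53e-06). Over all pairs of replicated groups, 11 of 15 were called for Tgfbr1. Nras was highest with vavcre, then in wild-type fetal liver and the other LIN28B line, and lowest in the labelled Lin28b knockout, wild-type marrow and let-7b/c knockout. Dna2 was highest in both replicated fetal groups, then in the LIN28B lines and the let-7b/c knockout, and lowest in wild-type marrow. For Dna2 the let-7b/c knockout and the vavcre line, which are not neighbours, did pass (adjusted p = 0.0142, up to 0.412 under alternatives).

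During development from fetal liver to adult marrow, 5 of the 6 genes (Arid3b, Dna2, Plagl2, Nras and, at the threshold, Mycn) were higher in wild-type fetal liver and 0 were lower. Over all tested genes 27.1% were called, 13.9% higher and 13.2% lower. Of 40 other tested let-7 targets, 15 were higher and 5 lower in fetal liver, with a median log2 difference of 0.22 against -0.08 over all genes. Hmga2, a chromatin protein of fetal progenitors, was at 532 ± 11.2 CPM against 31.9 ± 3.46 CPM (n = 3 each). Of 20 replication origin genes, 13 were higher and 0 lower, among them Mcm4 and the cyclin gene Ccne1 (84.7 ± 1.96 against 24.5 ± 2.36 CPM, n = 3 each). Granulocyte markers moved with this comparison: 10 of 11 tested were lower, and their summed level was 402 to 493 CPM in fetal liver against 1510 to 2283 CPM in marrow. Lymphoid markers summed to 89.7 to 125 CPM against 18.0 to 26.9 CPM. Their part in these differences was not tested. With library totals the median over all genes moved to -0.19, and 38.1% rather than 51.3% of the called genes were higher in fetal liver.

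In the labelled Lin28b knockout, Mycn, Tgfbr1 and Nras fell, Plagl2 rose, and Arid3b and Dna2 were not called. Over all tested genes 43.8% were called, 20.8% higher and 23% lower, against which the 4 of 6 called genes are read. With library totals 35.3% of the called genes were higher, against 47.5% with TMM, and the median over all genes was -0.19 against 0. The erythroid, hepatocyte and granulocyte marker shift described above moves with each of these differences. So do macrophage markers (10 of 11 higher, 647 to 722 against 145 to 169 CPM), megakaryocyte markers (6 of 6 higher, 585 to 1048 against 108 to 131 CPM) and stromal markers (6 of 7 higher, 32.2 to 128 against 4.87 to 7.35 CPM). Of 8 tested CMP markers 5 were lower and 1 higher, and of 9 lymphoid markers 4 were lower. The part of these shifts in the differences was not tested. Other let-7 targets went both ways, with 14 higher and 13 lower of 40. Hmga2 fell 23.5-fold, whereas E2f2, a cell cycle factor, rose 27.8-fold.

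Of the partners of the 6 genes in that comparison, the TGF-β list had a larger share called than all genes. The MYC network and RAS lists had shares near that of all genes over both directions together, though the RAS list leaned lower. Among 13 tested genes of the MYC network, 4 were higher and 3 lower, including rises in Mxd1 (417 ± 40.7 against 22.3 ± 2.04 CPM), Mxd3 (59.5 ± 3.20 against 2.63 ± 0.615 CPM) and Mxi1 (15.3 ± 1.78 against 1.69 ± 0.361 CPM, n = 3 each). These encode proteins that compete with MYC proteins for their partner MAX. Such genes did not all rise. Mxd4, of the same family, was lower (log2 difference -1.36, adjusted p = 3.72e-05), and Mnt was not called (log2 difference -0.22, adjusted p = 0.458). Of 21 other TGF-β and activin pathway genes, 15 were lower and 2 higher, with a median log2 difference of -0.91 against 0 over all genes. The falls included the signal transducers Smad4 (2.98-fold), Smad3 (2.94-fold) and Smad1 (4.10-fold), in the same direction as Tgfbr1. Of 27 RAS and MAP kinase genes, 10 were lower and 3 higher, with a median log2 difference of -0.27 against 0 over all genes. The adaptor Grb2 was 1.77-fold lower and the RAS inhibitor Rasa3 1.95-fold lower, while the kinase Braf was 2.14-fold higher. The PLAG family member Plagl1 was at 15.8 ± 5.14 CPM against 0.374 ± 0.131 CPM (n = 3 each).

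**Figure D3:**
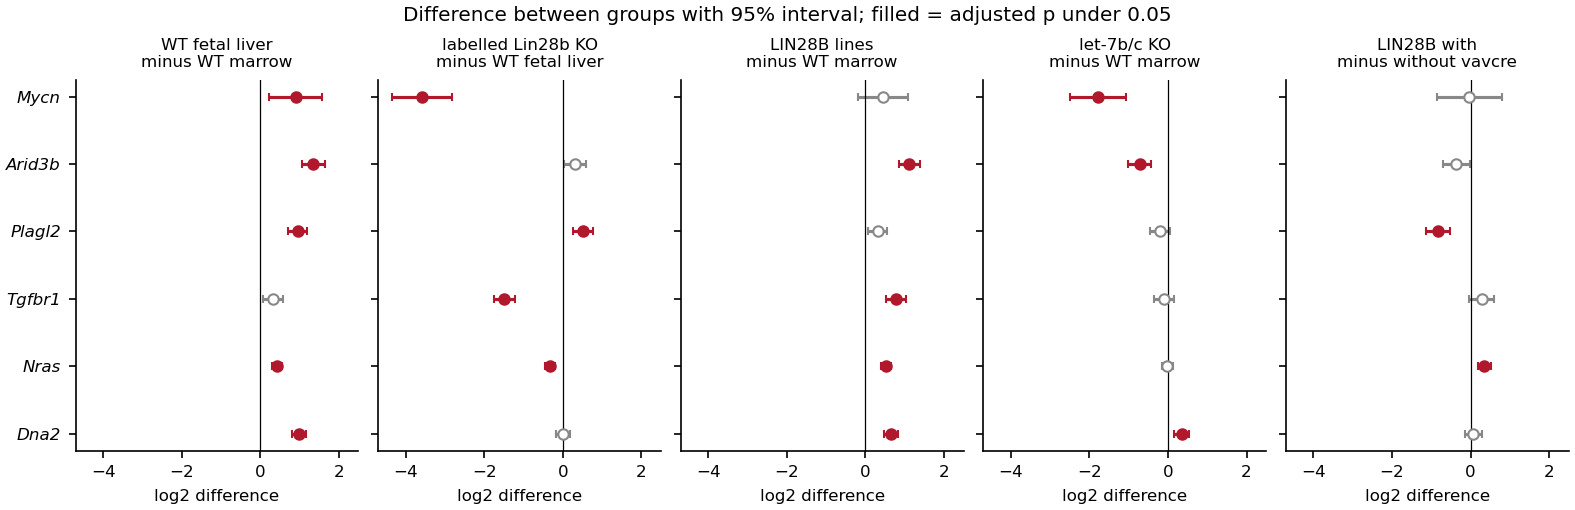
Log2 difference between groups (x axis, points) with its 95% interval (bars) for each gene in 5 comparisons, filled where the adjusted p is under 0.05. Mycn lies at -3.59 in the labelled Lin28b knockout, and no filled point lies below 0 in the developmental or LIN28B comparisons.

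After LIN28B induction, Nras, Arid3b, Dna2 and Tgfbr1 were higher than in wild-type marrow in the mean of both lines and 0 were lower, with Mycn and Plagl2 not called. Over all tested genes 14.4% were called, 6.59% higher and 7.86% lower. In the line without vavcre alone, 5 of 6 were higher (all but Mycn), where 0.804% of tested genes were called, 0.509% of them in that direction. Of these calls Nras was lost with no filter on low counts (adjusted p = 0.0531) and Tgfbr1 with library totals (adjusted p = 0.0569). Each of the 5 calls was lost under at least 1 alternative. The highest adjusted p was 0.112 for Arid3b, 0.167 for Plagl2, 0.180 for Dna2, 0.403 for Nras and 0.561 for Tgfbr1. In the vavcre line 4 of 6 were higher (all but Mycn and Plagl2), where 26.8% were called, 12.5% in that direction. Both contrasts share the wild-type marrow libraries. Induction is named here from the labels. Lin28b itself was at 2.67 ± 0.858 CPM without vavcre and 2.83 ± 1.55 CPM with vavcre (n = 2 each). Wild-type marrow had 0.359 ± 0.351 CPM and wild-type fetal liver 104 ± 17.6 CPM (n = 3 each). The counts are on mouse transcripts, and whether they capture the transgene was not tested.

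Of 40 other let-7 targets, 13 were higher and 0 lower after LIN28B induction, with a median of 0.31 against -0.07 over all genes. The ubiquitin-conjugating enzyme gene Cdc34 rose 1.69-fold and Hmga2 2.29-fold. Among the partners of the 6 genes, 1 of 13 MYC network genes was higher and 1 lower, and 4 of 20 replication origin genes were higher and 1 lower. The RAS and TGF-β lists had no gene called higher: 0 of 27 RAS and MAP kinase genes were higher and 2 lower, and 0 of 21 TGF-β and activin genes were higher and 2 lower. The lower ones were the ligand gene Tgfb1 (log2 difference -0.76) and the SMAD repressor Ski (-0.80), opposite in direction to Tgfbr1. Among DNA end resection and Okazaki fragment genes 3 of 19 were higher, Pold3, Exo1 and Pold1, and 0 lower. Macrophage markers moved with this comparison: 9 of 11 were lower, and they summed to 44.9 to 56.6 CPM without and 89.2 to 111 CPM with vavcre, against 145 to 174 CPM in wild-type marrow. Erythroid markers summed to 866 to 1075 CPM in the LIN28B libraries against 526 to 778 CPM. Their part in these differences was not tested.

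In the let-7b/c knockout, Mycn and Arid3b were lower, Dna2 was higher at the threshold, and Nras, Plagl2 and Tgfbr1 were not called. Few genes were called in all, 2.25% of those tested, with 1.33% higher and 0.922% lower. Of 40 other let-7 targets 2 were lower, Hmga2 (7.80 ± 2.89 against 31.9 ± 3.46 CPM, n = 3 each) and the co-receptor gene Tgfbr3 (also on the TGF-β list), and 1 was higher, Gatm. The median of that list was -0.10 against 0.00 over all genes. Among partners, 0 of 13 MYC network genes, 0 of 11 other ARID genes and 0 of 19 end resection genes were called. Of 27 RAS and MAP kinase genes 1 was lower, the RAS pathway inhibitor gene Spred1 (log2 difference -0.51, adjusted p = 0.0369), while the replication genes Ccne1 and Cdt1 were higher. CMP markers summed to 14720 to 17802 CPM against 10545 to 12575 CPM in wild-type marrow. Megakaryocyte markers summed to 131 to 234 against 325 to 458 CPM, and macrophage markers to 232 to 361 against 145 to 174 CPM. Mpo gave most of the CMP sum, at 14767 ± 1860 against 10205 ± 1074 CPM (n = 3 each). Gata2 was at 301 ± 84.2 against 471 ± 12.7 CPM. Of 8 tested CMP markers 0 were called higher and 1 lower, and of 6 megakaryocyte markers 0 were higher and 2 lower. Of 11 macrophage markers 1 was higher and 1 lower, with a median log2 difference of -1.66. Their part in these differences was not tested.

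Between the LIN28B lines, Nras was higher and Plagl2 lower with vavcre, and the other 4 genes were not called. Over all tested genes 20.6% were called, 9.37% higher and 11.3% lower. Both calls were lost in a fit of these 4 libraries alone (adjusted p = 0.0803 for Nras and 0.0792 for Plagl2). Of 21 TGF-β and activin genes 8 were lower with vavcre and 0 higher, with a median of -0.90 against -0.01 over all genes. They included Tgfb1 (2.55-fold), Ski (3.08-fold) and Tgfbr3 (2.52-fold), while Tgfbr1 was 167 ± 14.3 CPM with vavcre and 137 ± 12.3 CPM without (n = 2 each). Of 27 RAS and MAP kinase genes 5 were lower, among them the scaffold gene Ksr1, and 2 higher, among them Braf. Summed CMP markers were at 10022 to 11746 CPM with vavcre and 6504 to 7031 CPM without, macrophage markers at 89.2 to 111 against 44.9 to 56.6 CPM, and lymphoid markers at 45.9 to 92.0 against 23.7 to 27.7 CPM, with no overlap between the lines. Granulocyte markers overlapped, at 1041 to 3818 CPM with vavcre and 1066 to 1433 CPM without. Mpo gave most of the CMP sum, at 9695 ± 1401 CPM with vavcre and 5441 ± 405 CPM without (n = 2 each). Gata2 went the other way, at 475 ± 48.7 CPM with vavcre and 770 ± 13.9 CPM without. Of 8 tested CMP markers 1 was called higher with vavcre and 1 lower. Of 11 macrophage, 9 lymphoid and 11 granulocyte markers, 1 in each list was higher and 0 lower. Their part in these differences was not tested.

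**Figure D4:**
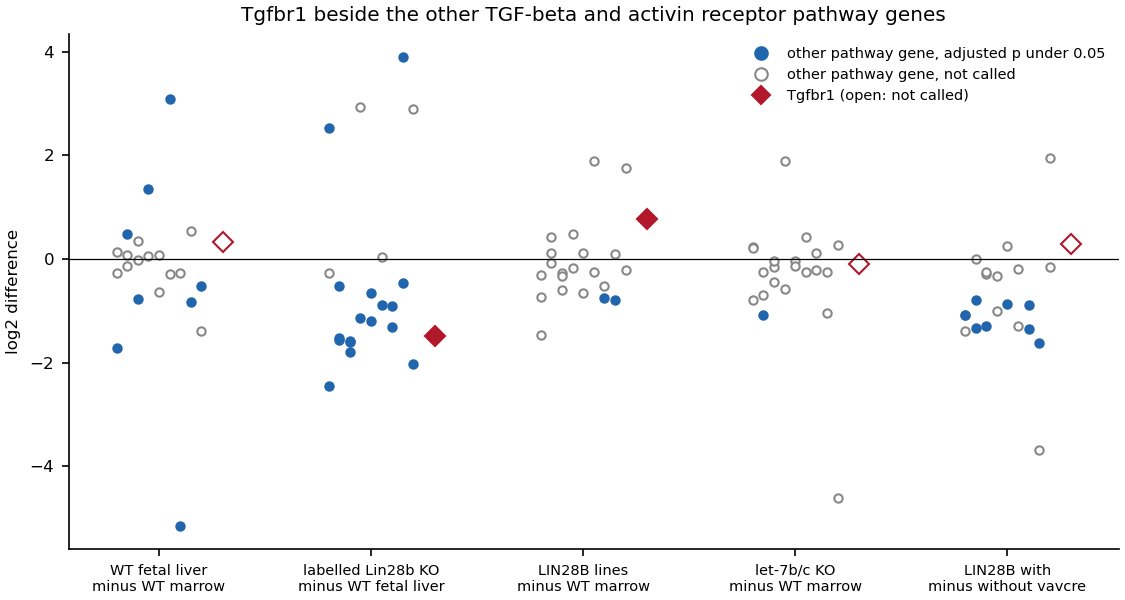
Log2 difference (y axis) of 21 TGF-β and activin pathway genes (circles, filled where called) and Tgfbr1 (diamonds, filled where called) in 5 comparisons. In the labelled Lin28b knockout Tgfbr1 at -1.48 lies among 15 genes called lower, whereas with LIN28B induction it lies above 0 and 2 pathway genes are called lower.

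In the inducible let-7 library, Plagl2 and Arid3b stood far below wild-type fetal liver, Dna2 and Mycn moderately below, Nras slightly below, and Tgfbr1 was within 0.09 of it on the log2 scale. With 1 library there is no test and no replicate check. Plagl2 was 42.6-fold below the wild-type fetal liver mean of 114 CPM (95% counting interval 33.6 to 54.7) and Arid3b 13.5-fold below its mean of 41.4 CPM (10.9 to 17.1). Both also lay below their means in wild-type marrow, 58.9 and 16.2 CPM. Dna2 was 2.14-fold and Mycn 2.03-fold below, near their wild-type marrow means of 108 and 115 CPM. Nras was 1.10-fold below, while Tgfbr1 was at 117 CPM beside a wild-type range of 101 to 116 CPM, a log2 difference of 0.09 that turned to -0.02 with library totals.

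The shift was not confined to these genes. The median over all tested genes was -0.33 on the log2 scale, 33.8% were at least 2-fold lower and 10.1% at least 2-fold higher. Against this background 3.25% of tested genes lay lower than Plagl2 and 9.09% lower than Arid3b, but 32.2% lower than Dna2 and 33.6% lower than Mycn. The number of seed matches did not order the 6 genes: Plagl2 with 1 match differed most, and Tgfbr1 and Nras with 2 each differed least. Of 40 other let-7 targets 22 were at least 2-fold lower and 2 at least 2-fold higher, with a median of -1.07. Of 21 TGF-β and activin genes other than Tgfbr1, 16 were at least 2-fold lower and 0 higher, with a median of -1.78. CMP markers summed to 17681 CPM in this library against 5680 to 7201 CPM in wild-type fetal liver. Granulocyte markers summed to 2047 against 402 to 493 CPM, and lymphoid markers to 1.16 against 89.7 to 125 CPM. Mpo alone gave 16857 CPM of the CMP sum, while Gata2 was at 122 CPM against 221 ± 11.2 CPM (n = 3). Gene by gene, 4 of 8 tested CMP markers were at least 2-fold higher and 2 lower. Of 11 granulocyte markers 3 were higher and 6 lower by that measure, and of 9 lymphoid markers 0 were higher and 7 lower. Their part in the shift was not tested.

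**Figure D5:**
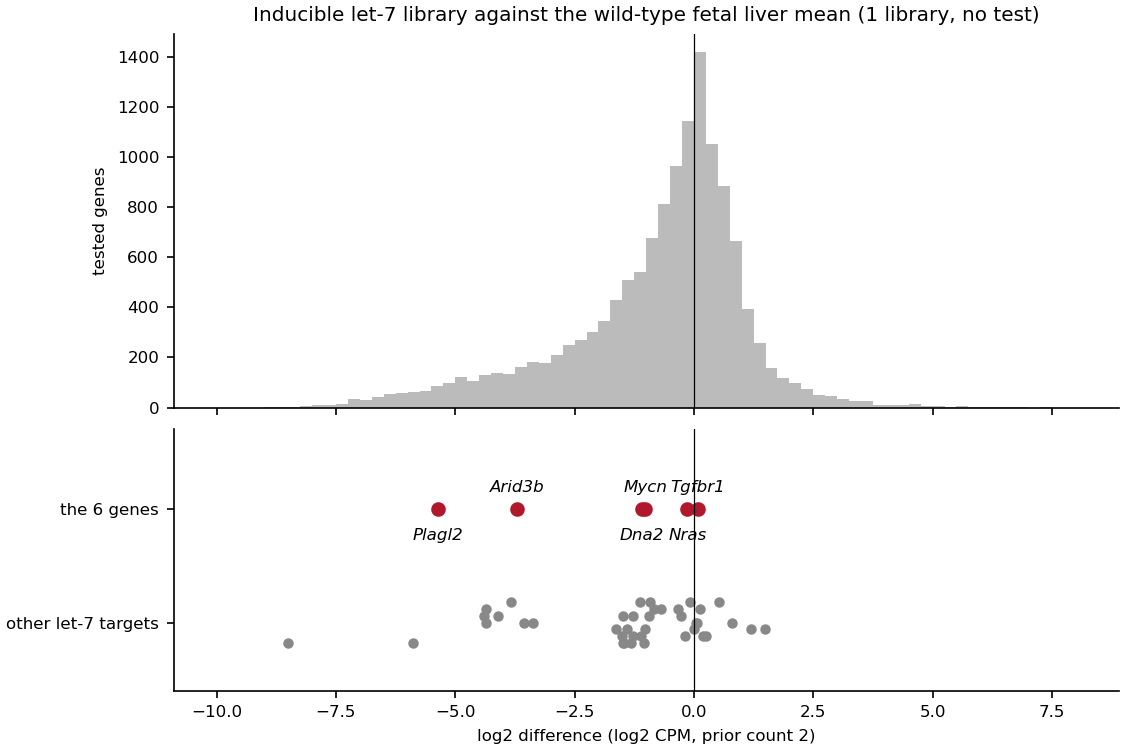
Distribution of the log2 difference of the inducible let-7 library from the mean of wild-type fetal liver, for all 13558 tested genes (upper panel, number of genes) and the same difference for 40 other let-7 targets and the 6 genes (lower panel; vertical spread within the grey points has no meaning). Plagl2 at -5.36 and Arid3b at -3.71 lie in the lower tail, whereas Nras and Tgfbr1 lie near 0.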

How the data were processed

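Total RNA of sorted CMPs was reverse transcribed with a SMARTer ultra-low-input kit, per the labels' protocols. The authors deposited unnormalized counts per RefSeq transcript, 1 file per library. Tools named in the submitters' processing notes are cutadapt, TopHat2 and HTSeq, with build mm10, and versions, settings and strand were not given in the sources used here. HTSeq's ambiguous (23.8% to 29.8% of uniquely placed reads) and unassigned (8.87% to 19.3%) reads were left out of library sizes. Of 33818 transcripts, 33435 were named from RefSeq (GRCm38.p6), 191 from GENCODE vM21, and 192 kept their accession (up to 3.37% of a library's counts). Each of the 6 genes had 1 transcript, although RefSeq now lists 2 for Nras, Arid3b and Dna2 and 3 for Tgfbr1. Counts were summed per gene with Python 3.11.15 and pandas 2.3.3.

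Tests used edgeR 4.0.16 in R 4.3.3 (TMM, filterByExpr, glmQLFTest, two-sided, 7 group means, 10 residual degrees of freedom). The script was tested on simulated counts of the developmental comparison over 13558 genes, where it called 26.2% of genes changed 1.5-fold, 58.8% changed 2-fold and 80.0% changed 4-fold. Log2 CPM used a prior count of 2. Alternatives were DESeq2 1.42.0, limma-trend 3.58.1, other scalings and filters, a replicate block and leaving out each library. All 6 genes are named throughout. From each pathway list up to 3 called genes per comparison, by smallest p, could be named, and Mxd4 and Mnt were added beside Mxd1. Marker genes are given as checks of cell type. The 3 genes with the most similar log2 CPM profile (Pearson r) are named for each of the 6. The genes and lists were chosen with earlier results of these data known.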

Additional observations from a re-analysis of the deposited data

Results flagged for a closer look

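Nras and Plagl2 differed between LIN28B-induced marrow with and without vavcre by the test of that difference itself. Nras was 0.35 higher on the log2 scale with vavcre (edgeR adjusted p = 0.00465), with both vavcre libraries (349 and 346 CPM) above both others (273 and 274 CPM). Plagl2 differed by -0.83 (edgeR adjusted p = 0.00104), with both vavcre libraries (47.8 and 61.7 CPM) below both others (105 and 89.8 CPM). Both calls were lost in a fit of these 4 libraries alone (adjusted p = 0.0803 and 0.0792) and with the replicate block (0.162 and 0.0530). The other 4 genes did not pass this test.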

How the results depend on the processing

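Of 720 values of the 6 genes in 5 comparisons under alternatives, 657 stayed on the same side of the threshold. Another 40 lost and 23 gained a call, and 0 reversed a called value. Values called in neither fit counted as unchanged even where their sign changed. Dna2 in the labelled Lin28b knockout was 1 of these, at 0.01 and at -0.18 to 0.09 under alternatives. Of 30 gene results, 18 kept their side of the threshold under every alternative run. In the labelled Lin28b knockout the count called higher was 1, and 2 with median ratios, DESeq2 or the compared groups alone (1 to 2 over left-out libraries). In the let-7b/c knockout the count higher was 1, and 0 with library totals or the compared groups alone (0 to 1 over left-out libraries), and the count lower was 2, and 0 with the compared groups alone (1 to 2 over left-out libraries). With the compared groups alone the counts for vavcre were 0 higher and 0 lower, against 1 each. With library totals the inducible let-7 library stood at -1.12 for Mycn, -0.24 for Nras and -5.46 for Plagl2, against -1.02, -0.14 and -5.36, and Tgfbr1 changed sign, from 0.09 to -0.02. Against wild-type marrow the labelled Lin28b knockout reversed for Nras to -0.20, and against the vavcre line for Dna2 to -0.0094 (adjusted p = 0.951, 0.32 with TMM).

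Same-numbered libraries did not deviate together (r -0.08 to 0.03 over 12 pairs, -0.08 to 0.09 over 94 others). Pairing by number was thus not seen, but 12 pairs cannot exclude it. With the replicate block, which leaves 4 residual degrees of freedom, calls over all genes fell from 3677 to 2185 for development, 5941 to 3073 for the labelled Lin28b knockout, 1958 to 274 for LIN28B induction, 305 to 35 for the let-7b/c knockout and 2799 to 435 for vavcre. Among the 6 genes the block left 4, 2, 4, 0 and 0 called, against 5, 4, 4, 3 and 2. Its counts higher were 0 for the labelled Lin28b knockout, the let-7b/c knockout and vavcre, and its counts lower 0 for the last pair.

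Calls over all genes also moved by over 1.5 times elsewhere. For LIN28B induction they were 1132 with the compared groups alone, and 1095, 1206 and 1166 without wild-type marrow 2, wild-type marrow 6 or LIN28B library 1. For vavcre they were 422 with the compared groups alone and 1376 without LIN28B library 5. For the let-7b/c knockout they were 782 with DESeq2, 96, 191 and 142 without wild-type marrow 2, 5 or 6, 130 without knockout library 2, and 600 and 596 without vavcre library 4 or 6. The causes were not tested. Depth limits the inducible let-7 values of Plagl2 and Arid3b, at 69 and 79 counts.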

Other observations

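Across the 17 libraries the 6 genes fell into contrasting profiles of log2 CPM. Mycn and Tgfbr1 varied together (Pearson r = 0.82), as did Arid3b with Plagl2 (r = 0.87) and with Dna2 (r = 0.82), whereas Plagl2 and Tgfbr1 did not (r = -0.36), nor did Mycn and Plagl2 (r = -0.17). These values are descriptions, since libraries of a group share genotype and tissue. Among 9078 genes at 1 CPM or more on average, the profiles most like Mycn were those of Gimap6 (r = 0.92), Gimap5 (0.90) and Gimap9 (0.90), which encode small GTPases of lymphocytes. The nearest to Tgfbr1 were Il2rg (0.95), which encodes the common cytokine receptor gamma chain, Trim35 (0.95) and Trp53rka (0.94). The nearest to Plagl2 were Vcl (0.98), which encodes the adhesion protein vinculin, Cracd (0.97) and Klf16 (0.97). Arid3b lay nearest to Carnmt1 (0.93), Pip4k2a (0.90) and Ltbp1 (0.90), and Nras to Trip13 (0.92), E2f5 (0.89) and Pold3 (0.89). Dna2 lay nearest to Cdc34 (0.93), Ipo13 (0.89) and Cdc25a (0.89), and of all these Cdc34, Cdc25a and E2f5 are on the list of other let-7 targets.

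Genes at 10 CPM or more on average were also grouped by seed matches in their 3′ UTR. In the inducible let-7 library, 15.5% of 5312 genes without a match were at least 2-fold below wild-type fetal liver, with a median log2 difference of 0.11. With 1 or more matches this was 26.3% of 1106 genes (median -0.16), and with an 8-base match 31.3% of 246 genes (median -0.41). Of 7 genes with 5 or more matches, Arid3b among them, 71.4% were at least 2-fold lower. Over all tested genes regardless of level the shares were 31.6% without a match (median -0.23), 38.3% with 1 or more (-0.51) and 43.1% with an 8-base match (-0.68). The classes were not matched for 3′ UTR length, and the inducible let-7 group has 1 library. Among genes at 10 CPM or more, the let-7b/c knockout median of those with a match was -0.01, against 0.01 without.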
